A study of Drosophila melanogaster with 3 samples.

Results

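Transfer RNA genes are short, many-copied genes that are transcribed by RNA polymerase III rather than by the polymerase that makes messenger RNA. Their promoter lies inside the gene, in the A box and B box that the factor TFIIIC binds, and TFIIIC places the factor TFIIIB, and with it the polymerase, at the start of the gene. In Drosophila, as in other animals, copies that carry the same amino acid are often grouped in clusters, many of them inside introns or beside unrelated protein-coding genes. The 290 members described here were all genes of biotype tRNA on the 6 nuclear chromosome arms (X, 4 and both arms of 2 and 3) in a RefSeq gene table for the dm6 build of the Drosophila melanogaster genome, out of 17684 annotated genes there. The symbols of all 290 give an amino acid and an anticodon.

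The samples were 3 ATAC-seq replicates of 1 wild-type group. Each replicate was made from the abdominal cuticles of 50 pupae at 38 to 45 h after puparium formation, freed of internal organs by hand so that the attached epidermal cells were left, and the labels give no sex. ATAC-seq marks open chromatin, because a transposase cuts DNA where it is accessible and adds sequencing adapters there, and here nuclei were freed with an Omni-ATAC procedure using 0.1% IGEPAL. The 34718 peaks used were a merged list of all replicates, so no value below has a replicate error, no test between groups was possible, and comparisons are given as values side by side. All 6 epidermal marker genes looked for (grh, shg, sha, knk, serp and vvl) had a peak summit within 500 bp of an end. So did all 4 muscle markers and all 4 hemocyte markers, 3 of 4 neuronal and 3 of 4 fat body markers. It also held for 2 of 4 oenocyte markers, 2 of 3 tracheal markers and 2 of 3 germline markers. The same rule was met by 65.6% of all protein-coding genes, so these short lists say little about which cells were present. The part of cells other than epidermis in the values below was not tested.

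A tRNA gene was counted as having a summit when the highest point of a peak lay within 500 bp of either of its ends. This held for 207 of the 290 tRNA genes, or 71.4%, with a 95% Wilson interval of 65.9 to 76.3%, and 83 genes had none. Intervals on shares cover counting over genes only, and they are too narrow because neighbouring genes can share a peak. The same rule was met by 61.0% of the 17394 annotated genes that are not tRNA genes and by 65.6% of the 13922 protein-coding genes. Those genes are mostly long, so their ends lie far apart and offer more sequence to the rule than a tRNA gene of 73 bp at the median (range 71 to 186 bp). Among 719 other genes of at most 200 bp, 165 had a summit, or 22.9%. A gene of the median tRNA length placed at every position of the arms in turn would have a summit in 23.8% of places. The share of tRNA genes with a summit was therefore 48.4 percentage points above that of other short genes (95% interval 42.1 to 54.1, counting over genes only).

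Other short genes differed by kind. Genes of microRNAs, whose transcripts are cut to short regulators of messenger RNA, had a summit in 73 of 260 cases (28.1%). Genes of snoRNAs, which guide modification of ribosomal RNA, had one in 57 of 260 cases (21.9%). Genes of the snRNAs, mostly spliceosome components, had one in 13 of 28 cases (46.4%). Ribosomal RNA genes of this length, nearly all of them copies of 5S rRNA, had a summit in 1 of 98 cases. Without ribosomal RNA genes and their pseudogenes, the other short genes had a summit in 164 of 612 cases (26.8%). Of the 5 annotated tRNA pseudogenes of this length, 3 had a summit.

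The summits lay very close to the tRNA genes. For 54 genes the nearest summit fell inside the gene, and for 59 more it fell 1 to 25 bp outside it. These 113 genes made up 39.0% of all tRNA genes (33.5 to 44.7%), and each had a summit of its own, from 113 different peaks. The same distance, a bound chosen after the distances had been seen, was met by 32 of 719 other short genes (4.45%) and by 3.19% of arm positions. Of the 54 summits inside a tRNA gene, 43 lay within 20 bp of an end and 11 lay deeper. Most of a tRNA gene of 73 bp, the median length, lies within 20 bp of an end. No share to be expected from length alone was calculated. Of the 59 just outside, 35 lay on the side of lower coordinates and 24 on the side of higher coordinates. The gene table used here gives no strand, so upstream and downstream were not told apart, and no DNA sequence of these genes was used.

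Summit density was highest at the tRNA genes, fell off sharply by 51 to 100 bp and was higher again farther out. It was 2.45 summits per kb inside tRNA genes, 4.07 per kb at 1 to 25 bp from them and 0.483 per kb at 26 to 50 bp. In the ring from 51 to 100 bp it was 0.0345 per kb, which is 1 summit in 29000 bp, against a mean of 0.259 per kb over the arms. From 101 to 150 bp it was 0.690 per kb, from 151 to 200 bp 0.276 per kb, from 201 to 300 bp 0.638 per kb, and from 301 to 400 bp 0.793 per kb. Around other short genes it was 0.321 per kb inside the gene, 0.195 per kb at 1 to 25 bp and 0.153 per kb at 51 to 100 bp. Rings were summed over genes, and the median gap within tRNA clusters was 242 bp. A summit at 1 clustered gene can therefore count again in an outer ring of its neighbour. The low ring is in part set by the list itself, since each peak has 1 summit and no neighbouring summits were closer than 191 bp, so a gene with a summit in it or beside it can hardly have another in the ring. Among the 177 tRNA genes with no summit inside or within 25 bp, the ring from 51 to 100 bp also held 1 summit, at 0.0565 per kb, whereas 101 to 150 bp held 20, at 1.13 per kb. Peaks overlapped 88 of these 177 genes.

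**Figure D1:**
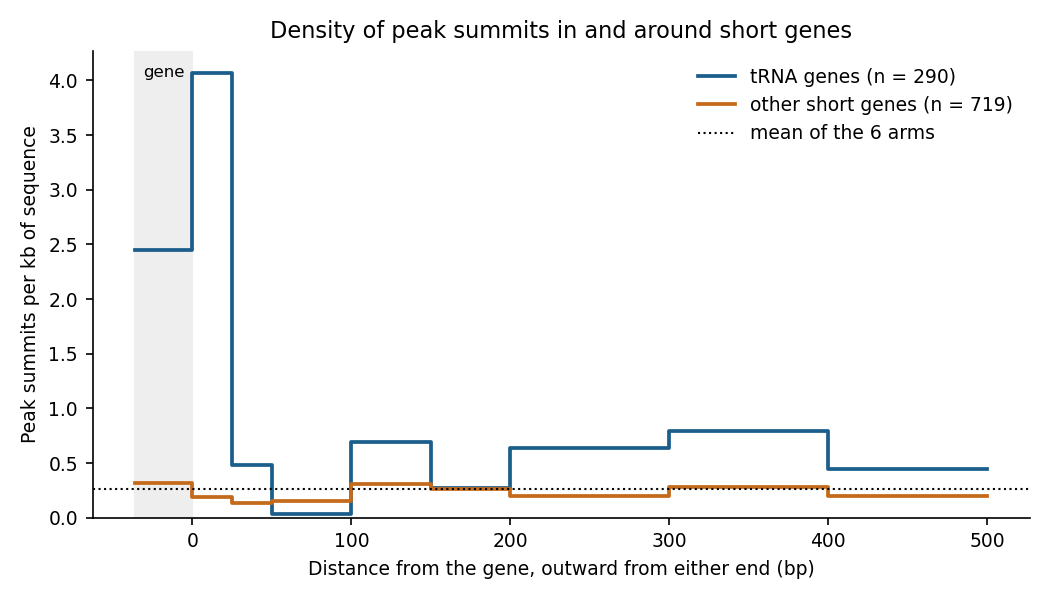
Peak summits per kb of sequence (vertical axis) inside genes (grey band, drawn at an arbitrary width) and in rings outward from either end (horizontal axis, bp), for 290 tRNA genes and 719 other genes of at most 200 bp; the dotted line is the mean of the arms. The tRNA curve stands at 2.45 inside the gene and 4.07 in the first 25 bp, drops to 0.0345 at 51 to 100 bp, and lies above the other short genes from 101 to 500 bp. Rings of neighbouring genes overlap, so a summit can count for several genes.

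The nearest summit was 203 bp from the tRNA gene's midpoint at the median (quartiles 41.6 and 623 bp). For other short genes the median was 1456 bp, with 1261 bp for microRNA genes and 1061 bp for snoRNA genes. Summits were also found at tRNA genes far from the ends of other genes. In all, 164 tRNA genes lay over 1000 bp from both ends of every gene that is not a tRNA gene, and 111 of them had a summit (67.7%). Of the 126 tRNA genes nearer to such an end, 96 had one (76.2%). The median fold enrichment of the highest peak per gene was 2.23 for the 164 genes and 2.55 for the 126. Of the 164, 89 lay inside the span of a protein-coding gene, of which 62 had a summit (69.7%), and 75 lay outside such spans, of which 49 had one (65.3%). Of all 164 genes, 59 had it inside or within 25 bp, and the median midpoint distance was 272 bp. At the other end, 46 tRNA genes were over 1000 bp and 24 were over 2000 bp from any summit. The farthest was tRNA:Met-CAT-1-5 on arm 3R, 13212 bp away, a gene singled out after its value was seen. On either side of the 500 bp limit, the nearest members inside it were tRNA:Trp-CCA-2-1 at 492 bp and tRNA:Arg-TCG-2-3 at 476 bp, and the nearest outside were tRNA:Pro-AGG-1-7 at 505 bp and tRNA:iMet-CAT-1-3 at 507 bp.

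Peaks at tRNA genes were close in height to peaks at the ends of other genes. In all, 180 peaks had their summit within 500 bp of a tRNA gene, and the authors' peak caller gave each a fold enrichment, the read pileup at the summit over the local background. The median fold enrichment was 2.29 for these 180 peaks and 2.24 for the 10675 other gene-end peaks, a difference of 0.0453 (95% interval -0.0790 to 0.209, over peaks). The tRNA peaks had a median pileup of 172.5 overlapping reads over a background of 72.5, and the other gene-end peaks had 159 over 65.3. They were also wider, at 451.5 bp against 383 bp at the median. Above the median −log10 q of all peaks lay 131 of the 180 tRNA peaks (72.8%), against 65.7% of other gene-end peaks. For the 113 peaks with a summit inside or within 25 bp of a tRNA gene, this share was 80.5% (91 peaks) and the median fold enrichment was 2.42. A fold enrichment of 3 or more was reached by 24 tRNA peaks (13.3%) and by 11.2% of other gene-end peaks. Another gene's end lay within 500 bp of 58 tRNA peaks. The 122 tRNA peaks without one had a median of 2.20, against 2.18 for the 6253 peaks near the end of 1 other gene.

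Amino acid classes, the sets of tRNA genes that deliver the same amino acid, were compared next. There were 22 classes with 44 anticodons, counting the initiator methionine tRNA (iMet), which starts every protein, apart from the elongator Met, and counting selenocysteine (SeC). All 21 classes of at least 5 genes had a summit at some members, and shares ran from 42.1% for Lys to 100% for Asn and His, a span of 57.9 percentage points between the extremes. The lowest and highest of 21 small classes differ by selection, so the span is a description, and class intervals are wide. In 13 of the 21 classes the share was above the 71.4% of all tRNA genes. For Asp (10 of 14) and Cys (5 of 7), counted among them, it was the same at the digits printed.

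Lysine tRNA genes had a summit least often, 8 of 19 (42.1%, 95% Wilson interval 23.1 to 63.7%). The genes with anticodon CTT, which reads one of the lysine codons, had one in 5 of 13 cases, and those with anticodon TTT in 3 of 6. The 11 genes without a summit were spread over several places, and 4 of them, tRNA:Lys-CTT-1-6 to 1-9, formed a cluster at 2R:6946808-6949205 inside mim whose nearest summit lay 4876 to 7201 bp away. Where a lysine gene did have a summit, it was usually at the gene, since 6 of the 8 had it inside or within 25 bp. The highest was at tRNA:Lys-CTT-1-1 (2R:6142372-6142444), with a fold enrichment of 2.65 (95% Poisson interval 2.32 to 3.02, counting error of the pileup only).

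Arginine tRNA genes came next among the larger classes, with 13 of 26 (50.0%, 32.1 to 67.9%). The anticodon TCG had a summit at 4 of 10 genes and ACG at 6 of 10. All 4 genes of the isodecoder tRNA:Arg-TCG-3, a set of copies that the naming treats as the same tRNA, had none. These 4 genes lie side by side in 1 cluster on arm X, so they are not 4 separate observations. Other isodecoders also had none, such as tRNA:Gly-TCC-2 and tRNA:Trp-CCA-1 with 2 genes each. Clustered arginine genes had a summit in 12 of 20 cases and single ones in 1 of 6. The elongator Met class had 3 of 6 (50.0%), none of them inside or within 25 bp of the gene.

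Asparagine tRNA genes all had a summit, 10 of 10 (72.2 to 100%), but with low peaks. Their highest peaks had a median fold enrichment of 1.88, the lowest of any class of at least 5 genes, and ranged from 1.73 to 2.47. These 10 genes shared 7 peaks, and 8 of them lay in clusters on arm 2R, so they are not 10 separate observations. With peaks limited to those above the median −log10 q, the class fell to 4 genes in 10 (40.0%). Histidine tRNA genes had 5 of 5 (56.6 to 100%), with 4 of them in 1 cluster near the ends of garz and CG8490, and every histidine gene lay within 1000 bp of an end of another gene.

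Among the other classes, Tyr had 9 of 10 genes with a summit, Ala 15 of 17 (88.2%), Leu 19 of 22 (86.4%) and Val 12 of 15. Ser had 15 of 20, Gln 9 of 12 and Trp 6 of 8. Glu had 14 of 19, Ile 8 of 11, Asp 10 of 14, Cys 5 of 7 and Thr 12 of 17. Gly had 13 of 20, Pro 11 of 17 and Phe 5 of 8. A summit inside or within 25 bp was found at 39.0% of all tRNA genes. Among classes picked after their values were seen, it was found at 10 of 15 Val, 10 of 17 Ala and 11 of 20 Ser genes. In Trp and Phe it was found at 1 of 8 genes each. Other classes lay nearer the share of all tRNA genes, such as Asn with 4 of 10 and Glu with 9 of 19. These classes are small, and no difference between them was tested.

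**Figure D2:**
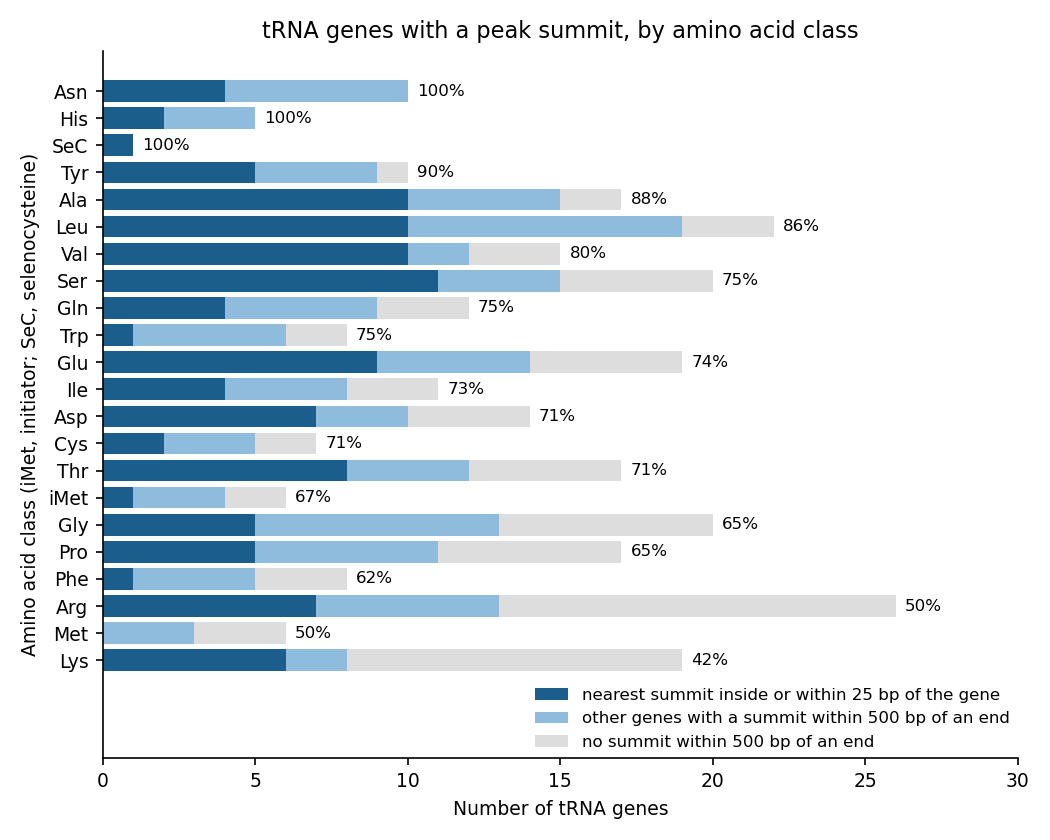
Number of tRNA genes in each amino acid class (horizontal axis), divided into genes whose nearest summit is inside or within 25 bp, other genes with a summit within 500 bp, and genes without one; the printed percent is the share with a summit. Asn, His and the lone SeC gene stand at 100% and Lys, lowest, at 42%.

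Gene length followed class. The 53 genes over 80 bp were 20 Leu, 20 Ser, 10 Tyr, 2 Ile and the SeC gene; leucine and serine tRNAs have a long variable arm, and fly tyrosine tRNA genes carry an intron. Of these 53 genes 43 had a summit (81.1%), against 164 of the 237 shorter genes (69.2%). Length and class cannot be told apart here.

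The initiator class had 4 of 6 genes with a summit, all 4 of them clustered. The genes tRNA:iMet-CAT-1-1 and 1-2 shared a peak of 3.01 (2.61 to 3.45) on arm 2R, and 1-4 and 1-5 shared a peak of 2.29 on arm 3L. The single genes had none: tRNA:iMet-CAT-1-3 missed the limit by little, at 507 bp, and tRNA:iMet-CAT-2-1, inside Mmp2, was 3036 bp from a summit. The selenocysteine gene, tRNA:SeC-TCA-1-1 at 2R:11357564-11357650, delivers the amino acid that is inserted at certain stop codons. It held a summit inside the gene with a low fold enrichment of 1.82 (1.49 to 2.20), and an end of iotaTry lay 27 bp from the tRNA gene.

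Peak height varied widely within classes. The median of the highest peak per gene ran from 1.88 for Asn to 2.90 for Trp among classes of at least 5 genes, a span of 1.02. The Trp value rested on 6 genes, 2 of which shared a peak. The highest peak near any tRNA gene, 3.61 (3.14 to 4.13), had its summit inside tRNA:Ser-AGA-2-4 at 2L:3173003-3173084, a single gene 121 bp from the end of CG31698. Leucine spanned from 1.42 to 3.54. Its highest peak was at tRNA:Leu-TAG-1-2 (3R:30248616-30248695), at 3.54 (3.09 to 4.05), with the summit 124 bp from the gene and the nearest other gene, CG34299, 888 bp away.

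Other high peaks were at tRNA:Thr-CGT-1-1 and 1-2, which shared one of 3.49 with the summit inside 1-2. The neighbours tRNA:Tyr-GTA-1-4 and 1-5 shared a peak of 3.48 (3.02 to 3.99) with the summit inside 1-4. Among single genes, tRNA:Leu-CAA-2-3 had 3.45 (3.00 to 3.94), tRNA:Trp-CCA-2-1 had 3.37 (2.91 to 3.87), tRNA:Tyr-GTA-1-9 had 3.25 (2.82 to 3.74) and tRNA:Gly-GCC-1-2 had 3.21 (2.77 to 3.70). These intervals overlap, so the order within this top set lies within counting error. The Tyr-GTA-1-9 and Gly-GCC-1-2 summits lay inside or 24 bp from the gene, whereas that of Trp-CCA-2-1 lay 492 bp away inside CG15431.

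For the remaining classes the highest peak was at tRNA:Ala-AGC-2-7 (3.45), tRNA:Arg-TCG-2-1 (3.40), tRNA:Glu-CTC-2-1 (3.34), tRNA:Asp-GTC-1-4 (3.23) and tRNA:His-GTG-1-5 (3.16). Lower maxima were those of tRNA:Val-AAC-2-1 (2.94), tRNA:Phe-GAA-1-4 (2.92), tRNA:Pro-TGG-1-5 (2.89), tRNA:Gln-TTG-1-2 (2.71) and tRNA:Met-CAT-1-1 (2.62). The lowest maxima were those of tRNA:Asn-GTT-1-10 (2.47), tRNA:Ile-AAT-1-9 (2.46) and tRNA:Cys-GCA-4-1 (2.23). Several of these summits were also near other genes: an end of Roc2 lay 35 bp from tRNA:Met-CAT-1-1, of CG14252 15 bp from tRNA:Gln-TTG-1-2 and of Smurf 74 bp from tRNA:Phe-GAA-1-4.

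**Figure D3:**
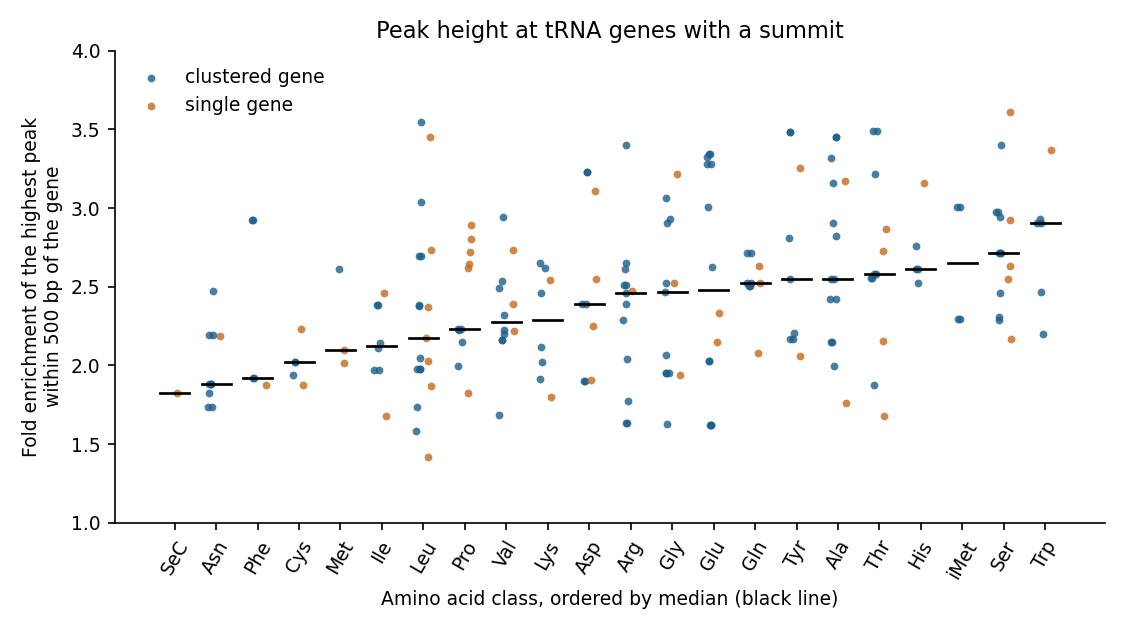
Fold enrichment of the highest peak within 500 bp of each of the 207 tRNA genes with a summit (vertical axis, linear scale from 1), by amino acid class ordered by the class median (black line), with clustered and single genes in separate colours; genes that share a peak share a value. Among classes of at least 5 genes medians run from 1.88 for Asn to 2.90 for Trp, and the highest gene, a single Ser gene, is at 3.61.

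Clusters were defined by a gap of under 2 kb to the next tRNA gene. The 290 genes formed 69 clusters with 200 genes and left 90 single genes, and the median gap to the nearest neighbour within clusters was 242 bp. The members nearest the 2 kb limit were tRNA:Ala-AGC-2-4 (1946 bp) and tRNA:Val-AAC-1-2 (1883 bp) on its clustered side, neither with a summit, and tRNA:Leu-CAG-1-7 (2131 bp) and tRNA:Gln-CTG-2-5 (2238 bp) on its single side, both with one.

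Clustered genes more often had a summit within 500 bp, 152 of 200 (76.0%, 69.6 to 81.4%) against 55 of 90 single genes (61.1%, 50.8 to 70.5%). The difference was 14.9 percentage points (3.52 to 26.5), beside the 22.9% of other short genes. Under this rule a summit can count for several clustered genes. When each summit was counted only for the nearest tRNA gene, 107 clustered genes (53.5%) and 55 single genes (61.1%) had one, and the difference was -7.61 points. That rule can only lower the clustered count and leaves the single count as it is, by construction. With a summit inside or within 25 bp, the shares were 77 of 200 (38.5%) and 36 of 90 (40.0%), a difference of -1.50 points. Of the 180 peaks, 66 lay within 500 bp of more than 1 tRNA gene, 10 of them of 3 genes and 1 of 4. Clusters had 118 peaks, or 0.590 per gene, and single genes 62, or 0.689 per gene.

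**Figure D4:**
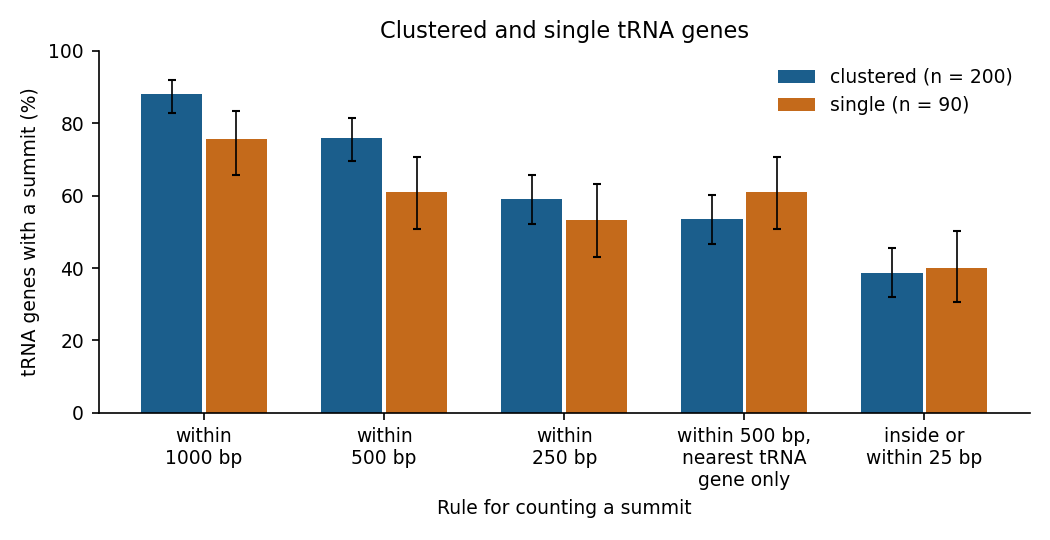
Share of clustered (n = 200) and single (n = 90) tRNA genes with a summit (vertical axis, percent) under 5 rules for counting one (horizontal axis); bars are shares and error bars 95% Wilson intervals, which cover counting over genes only. Clustered genes are higher at 1000 bp (88.0 against 75.6%) and 500 bp (76.0 against 61.1%), and lower where each summit counts for its nearest gene only (53.5 against 61.1%).

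Counted as units, 62 of the 69 clusters had a summit at some gene (89.9%), 43 of them at every gene and 19 at some. A cluster offers more sequence to the rule than a single gene, with a median span of 750 bp against 73 bp. Shares of clusters as units are therefore not comparable with the share of single genes. No share for arm stretches of cluster length was calculated. Of the 37 pairs, 33 had a summit, and of the 17 clusters of 3 genes, 16 had one. By genes, pairs had 61 of 74 and clusters of 3 had 42 of 51, whereas the 8 clusters of 4 had 16 of 32. The 7 clusters of 5 to 7 genes all had a summit somewhere. A share by gap showed no steady course: 121 of 156 genes with a neighbour under 500 bp away (77.6%), 19 of 29 from there to 1 kb (65.5%), 12 of 15 at 1 to 2 kb, 10 of 14 at 2 to 5 kb (71.4%), 9 of 17 at 5 to 20 kb (52.9%) and 36 of 59 at 20 kb or more (61.0%). Clusters of copies of 1 isodecoder had 67 of 86 genes with a summit (77.9%), and clusters that mixed amino acids had 62 of 85 (72.9%).

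Within classes, the share with a summit was higher in clustered than in single genes in 12 of 21 classes, equal in 2 and lower in 7. Leu had 12 of 12 against 7 of 10, Gln 6 of 6 against 3 of 6 and Gly 10 of 12 against 3 of 8. In the other direction, Asp had 6 of 10 against 4 of 4, Pro 5 of 10 against 6 of 7 and Lys 6 of 15 against 2 of 4. Among genes over 1000 bp from the ends of all other kinds of gene, many of them inside protein-coding genes, the shares were 82 of 109 clustered (75.2%) and 29 of 55 single (52.7%).

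Peak height hardly differed by cluster. The median of the highest peak per gene was 2.46 for clustered and 2.39 for single genes, a difference of 0.0663 (-0.215 to 0.302, over genes). Both parts of the ratio were higher in clusters, however. Peaks of clustered genes had a median pileup of 188 reads over a background of 76.5, and peaks of single genes had 152.5 over 64.0. Reads were placed by the authors, and how reads that match several copies were handled is not given in the sources used here. By the copy number that the symbols give, genes whose isodecoder has 1 copy had a summit in 26 of 38 cases (68.4%), those with 2 to 3 copies in 24 of 35 (68.6%), those with 4 to 6 in 69 of 91 (75.8%) and those with 7 or more in 88 of 126 (69.8%). The part of read placement in any of these values was not tested.

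The largest clusters had 7 genes each. At 2R:13430282-13432794, inside ATP8A, 5 Ile and 2 Leu genes all had a summit, from 5 peaks with fold enrichments of 2.14, 2.11, 2.38, 1.97 and 1.58. At 2R:19725620-19728958, 2 iMet and 5 Glu genes all had a summit, and their 5 peaks were higher, at 3.01, 3.33, 3.34, 2.45 and 2.63. The third, at X:14014814-14017284, had 5 Arg and 2 Ser genes and stood far from other genes, with the nearest end, of Ste12DOR, 13925 bp away. Only its first 3 genes had a summit, from peaks of 3.40 inside tRNA:Arg-TCG-2-1 and 2.46 beside tRNA:Ser-CGA-1-2. Its last 4 genes, tRNA:Arg-TCG-3-1 to 3-4, lay 748 to 1152 bp from the nearest summit.

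The 2 clusters of 6 genes also held genes with and genes without a summit. At 3L:3095737-3097590, inside Cht7, 4 of 6 Cys and Lys genes had a summit, from peaks of 1.94 and 2.02. At 3R:8139533-8141042, an Asn gene and the last 2 of 5 Arg genes had one, from peaks of 2.47 and 1.63. In each of these clusters a gene with a summit had a neighbour without one.

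**Figure D5:**
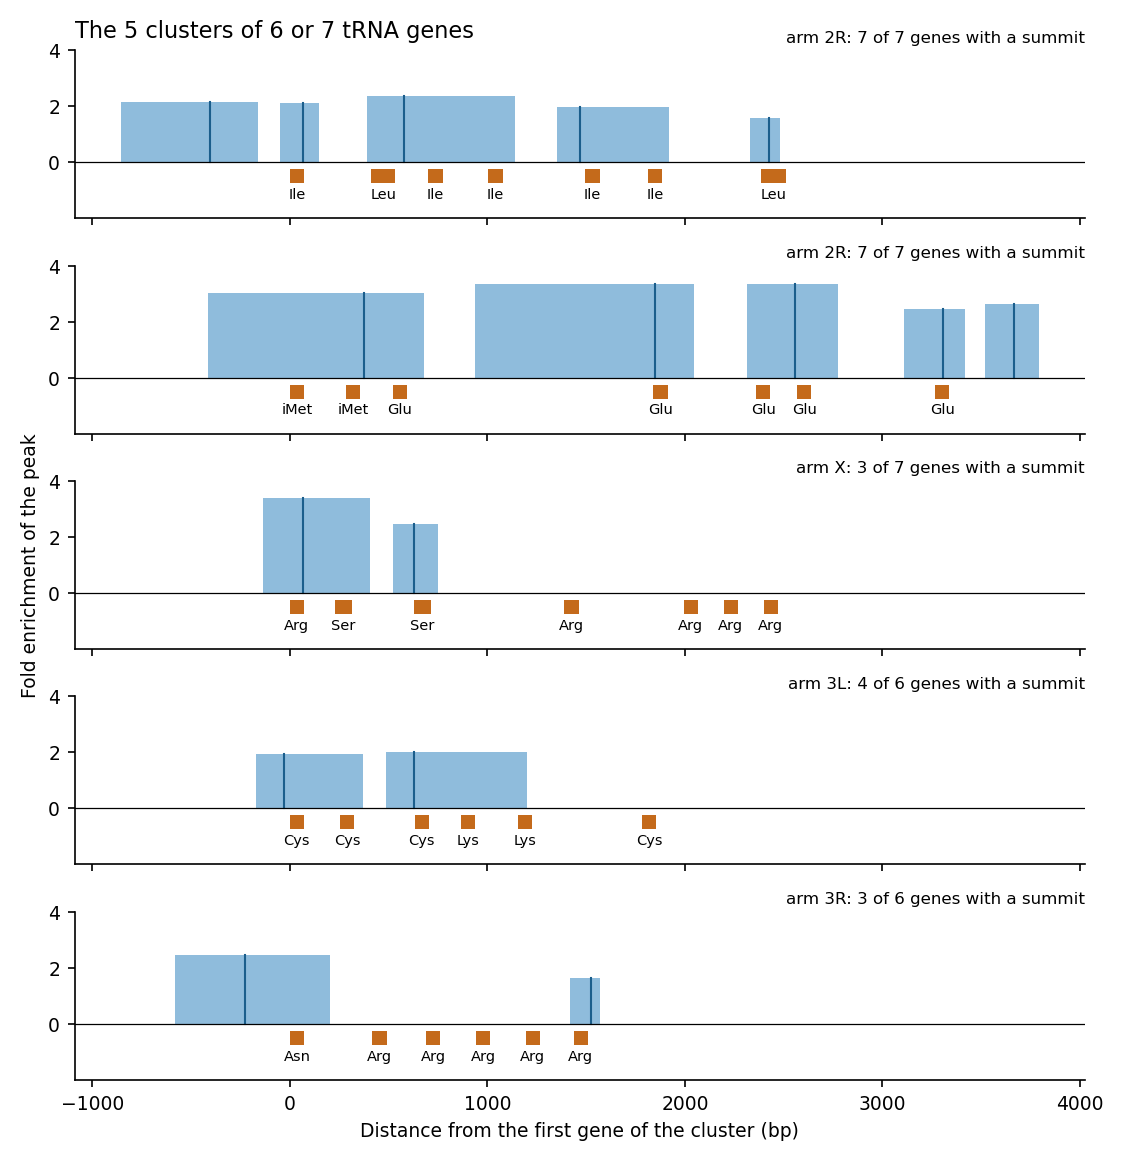
The 5 clusters of 6 or 7 tRNA genes, each on its own panel, with distance from the first gene of the cluster (horizontal axis, bp), tRNA genes as orange boxes named by amino acid, and peaks with a summit within 500 bp of a member as blue boxes whose height is the fold enrichment (vertical axis), with a line at the summit. All 7 genes of both 2R clusters have a summit, and the last 4 Arg genes of the X cluster have none.

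No summit was found within 500 bp of any gene in 7 clusters, which are named here after their values were seen. They were Asp pairs in dachs and in PIG-S, a Trp pair in Lrt, a Phe and Val pair in Sulf1, the 4 Lys genes in mim, 2 Lys and an Ile gene in EcR, and 4 Glu genes of the isodecoder tRNA:Glu-CTC-3 in Ptp61F at 3L:1397695-1398477. All 7 lay inside the span of a protein-coding gene. Over all clusters, 24 of 88 genes inside such spans and 24 of 112 genes outside them had no summit. Other clusters in such spans did have summits, and EcR, the ecdysone receptor gene, had both kinds. Of 13 tRNA genes within its span, from 2R:6142165 to 6166224, 9 had a summit, 4 of them inside or within 25 bp, with fold enrichments of 1.73 to 2.65. Over all 134 tRNA genes inside protein-coding gene spans, 92 had a summit (68.7%), against 115 of 156 outside (73.7%). The median of the highest peak was 2.23 inside such spans and 2.53 outside.

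The first genes by name without a summit were the clustered tRNA:Ala-AGC-2-4 and tRNA:Ala-AGC-2-6, 2186 and 1320 bp from the nearest summit, and the single tRNA:Arg-CCT-1-1 and tRNA:Arg-TCG-2-2, 2145 and 557 bp away. By arm, tRNA genes with a summit numbered 30 of 41 on 2L, 75 of 98 on 2R, 33 of 48 on 3L, 55 of 79 on 3R and 14 of 24 on X. Arm 4 had none of the 290 genes.

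Other genes transcribed by RNA polymerase III were counted in 2 sets. For comparison, 22.9% of other short genes and 61.0% of all genes that are not tRNA genes had a summit. Several genes of the second set are over 200 bp long, so the share of short genes does not apply to them directly. Of 96 genes of 5S rRNA, an RNA of the large ribosomal subunit, 1 had a summit. It was 5SrRNA:CR33452 on arm 2R (2.63), the copy nearest to the cluster of iMet and Glu tRNA genes described above, and its peak was the last of the 5 given for that cluster. The 5S genes are near-identical tandem copies, and the part of reads that match several copies in this count was not tested. Of the 10 other RNAs, which are the U6 and U6atac RNAs of the spliceosome, the 7SK and 7SL RNAs, and the RNAs of RNase P and RNase MRP, 9 had one. Those of both 7SL genes, 7SLRNA:CR42652 and 7SLRNA:CR32864, were peaks already counted for tRNA genes of the Lys-TTT-2 cluster. The highest were snRNA:7SKa (3.59) and the neighbours snRNA:U6:96Ab and snRNA:U6:96Ac (2.94 each), and RNaseP:RNA had none. The values of snRNA:U6:96Ab and snRNA:U6:96Ac had the same pileup of 170 reads over a background of 57.2, the lowest background of any peak. The synthetase gene ArgRS on arm X had these same values, so equal values do not show whether the 2 U6 genes share 1 peak.

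Most protein-coding genes that make, load and modify tRNA had a summit, as did 65.6% of all protein-coding genes. Among RNA polymerase III subunits it was 7 of 10 (70%), close to that share. Polr3A (2.92) and Polr3B (2.77) were highest, with none at Polr3F, Polr3G and Polr3K. Among polymerase III factors and their regulators it was 8 of 9, led by Maf1, a repressor of this polymerase (3.26), and Bdp1, a part of TFIIIB (2.99), with none at Tbp. Among aminoacyl-tRNA synthetases, which join each tRNA to its amino acid, it was 29 of 35, led by ArgRS-m (3.54) and AspRS-m (3.45). The 6 without were AsnRS, AspRS, CysRS-m, GluRS-m, MetRS and ValRS-m. Among tRNA processing and modification genes it was 26 of 27, led by Dtwd2 (3.20) and Trm7-32 (3.13), with none at Rpp30, a subunit of RNase P. For lysine and asparagine, a pair chosen after the values were seen, LysRS had a peak of 3.26 and AsnRS had no summit.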

How the data were processed

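ATAC-seq of 3 wild-type replicates was used as 1 merged peak list. The submitters' processing notes name the tools BWA, SAMtools, Picard and MACS2 and the build dm6. Their versions and settings, the merging and the handling of multiply matching reads are not stated in those notes. Fold enrichment, as deposited, is a linear ratio of summit pileup to local background. The deposited −log10 p-values and −log10 q-values and the score, a display value that was not used further, belong to the same summit.

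Whole pileups were recovered for all 34718 peaks from the caller's definitions, in which −log10 p is a Poisson tail and the fold is (pileup + 1) / (background + 1), within a tolerance of 0.002 (largest residual 0.000143). The background floor was 57.2 reads. The list does not give the depth of a replicate. Gene positions, which are 1-based, names and biotypes came from the RefSeq table of the same build; 22 mitochondrial tRNA genes were left out. Single genes are those with no other tRNA gene under 2000 bp away. Shares carry 95% Wilson intervals and differences of shares Newcombe intervals, for counting over genes only. Medians carry order-statistic intervals, for spread among genes or peaks, and peak heights Poisson intervals, for counting error only. Genes that share a peak share a value, so intervals over genes are too narrow. Of 35 processing and modification names, 7 were not found and 1 was a duplicate; marker names nos and dys were not found.

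Named genes were the highest of each class, the 5 highest clustered and single genes, the first 2 by name without a summit, the initiator and selenocysteine genes, the genes at the limits, and the 3 largest clusters; among the lists, the 2 highest and the first 2 without a summit. Exceptions are marked or are described as a group. Members and lists were chosen with earlier results of these data known. Python 3.11.15, NumPy 2.4.6, pandas 2.3.3, SciPy 1.17.1 and Matplotlib 3.10.9 were used, and the calculations were tested on simulated data.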

Additional observations from a re-analysis of the deposited data

How the results depend on the processing

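No paired analysis was possible because the replicates were used only as 1 merged list, which also left no replicate to omit. The share of tRNA genes with a summit (71.4%) was 57.2% within 250 bp, 84.1% within 1000 bp, 59.3% with peaks above the median −log10 q, and 55.9% with each summit counted for its nearest tRNA gene only. The difference between clustered and single genes (14.9 points) was -7.61 points under nearest-gene counting (which can only lower the clustered share) and -1.50 points for a summit inside or within 25 bp; both turn the direction. Under its other alternatives it kept its direction, from 5.67 to 22.5 points. The difference from other short genes (48.4 points) was 54.6 by peak overlap and 34.5 within 25 bp. The difference in median peak height between clustered and single genes (0.0663) changed sign with peaks above the median −log10 q (-0.0293), genes over 1000 bp from other gene ends (-0.134), 1 gene per run (-0.00986), a cluster gap under 1000 bp (-0.0173) or 5000 bp (-0.116), and without the cluster of tRNA:iMet-CAT-1-1 (-0.0013). The median distance (203 bp) was 331 bp with the same peaks. For these changes the cause was not tested, apart from fewer peaks or a narrower window by construction. Of 130 class shares under an alternative, 18 left the interval of the main share. Of 18 list counts, which have no interval, 2 differed by over 1.5 times, both of 5S rRNA, with 0 genes within 250 bp and 2 within 1000 bp. Alternatives for nearest-gene counting, the 25 bp bound and leaving out rRNA genes were chosen after seeing the data. Class shares rest on 5 to 26 genes, and the merged list limits what can be said of any of them.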
